A study of Homo sapiens with 6 samples.

Results

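This account follows 10 genes among 60671 gene IDs in a table of RNA counts. They are the NuRD subunits MTA1, MTA2, MTA3, HDAC1, HDAC2, CHD4 and RBBP4 and the methyl-CpG binding domain (MBD) family proteins MBD1, MBD2 and MBD3. They were taken by symbol, each matched exactly 1 Ensembl ID, and all 10 passed the filter on low counts, as did 33375 genes in total. The set was drawn up around MTA2 and MBD1 with the mutant-control difference of these libraries already known. Values of that difference are therefore given for the members as a description.

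The libraries hold RNA recovered with an anti-myc antibody (clone 4A6) from transfected HEK cells (calcium phosphate), an established line of human embryonic kidney origin. The labels name the protein as SYNJ2BP, which sits in the outer mitochondrial membrane, and give 3 replicates of a wild-type control (WT.Control, treatment "untreated") and 3 of an AAA mutant (AAA.mito). All cells of both groups were transfected, and depletion of ribosomal RNA followed the precipitation. The labels leave unsaid what the control cells express, which residues AAA refers to and what mito stands for, and differences between the groups beyond the mutation are possible. The labels do not say that replicates were separate cultures, so errors and p-values reflect at most library-to-library spread, which may be technical. Errors and p-values of fits with the replicate number as a block leave out the spread between numbers. Input RNA was not analysed here: lower recovery in the precipitate and less of an RNA in the cells cannot be told apart, nor can fewer cells and less RNA per cell.

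NuRD is a nuclear complex that joins chromatin remodelling to histone deacetylation. CHD4 supplies the ATPase that moves nucleosomes, HDAC1 and HDAC2 remove acetyl groups from histones, MTA proteins form the scaffold that holds the deacetylases, and RBBP4 binds histones. MBD2 brings the complex to methylated CpG sites, and MBD3 takes the place of MBD2 in a separate form of the complex. MBD1 is a reader of methylated DNA outside NuRD that works with the histone methyltransferase SETDB1.

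Several members are paralogs, so the sequences that separate them bear on whether reads could be credited to the wrong gene. The stretches below are the 60 coding bases most alike within each family, 5′ to 3′ on the coding strand, read from the GENCODE release 29 transcripts (GRCh38). Capitals mark bases that differ from the first gene of the family, and in the first gene the positions at which any relative differs.
MTA2: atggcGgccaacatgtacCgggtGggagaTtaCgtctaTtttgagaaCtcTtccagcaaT
MTA1: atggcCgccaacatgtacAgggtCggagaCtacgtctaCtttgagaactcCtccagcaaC
MTA3: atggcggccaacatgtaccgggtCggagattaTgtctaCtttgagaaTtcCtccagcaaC
MBD3: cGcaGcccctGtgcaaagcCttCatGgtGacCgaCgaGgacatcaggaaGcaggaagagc
MBD2: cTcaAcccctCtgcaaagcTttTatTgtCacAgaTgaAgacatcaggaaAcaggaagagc
HDAC1: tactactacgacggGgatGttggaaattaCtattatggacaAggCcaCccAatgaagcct
HDAC2: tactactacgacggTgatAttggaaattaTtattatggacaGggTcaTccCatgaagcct
The MTA stretch starts at the start codon in all 3 genes and crosses the junction of exons 1 and 2, at chr11:62600658-62601450 on the minus strand for MTA2. MTA1 (chr14:105420036-105438703, plus strand) differed from MTA2 at 7 of these 60 bases, and MTA3 (chr2:42568746-42570468, plus strand) at 6. The MBD3 stretch (chr19:1578525-1581137, minus strand) and that of MBD2 (chr18:54159890-54164568, minus strand) cross exons 5 and 6 and differed at 11 bases. HDAC1 (chr1:32292206-32302667, plus strand) and HDAC2 (chr6:113959972-113970869, minus strand) differed at 7.

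Over whole aligned coding sequences MTA2 shared 67.4% of bases with MTA1 and 69.3% with MTA3, MBD3 shared 68.0% with MBD2, and HDAC1 shared 75.7% with HDAC2. No member's principal transcript held a 50-base word present in another member. MTA2, MBD1, MTA3 and MBD2 held none present in any other annotated gene.

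CHD4, MBD3, RBBP4 and MTA1 did share words with genes that overlap them. Of the words of CHD4, 87.3% occurred in AC006064.6, a longer protein-coding ID on the same strand that covers 83.9% of the CHD4 span. For MBD3 the leading partner was AC005943.1 (30.1%), for RBBP4 the neighbour SYNC (19.8%), and for MTA1 the antisense gene AL928654.2 (9.09%). Over all other annotated genes together, the shared words were 34.2% for MBD3, 25.8% for RBBP4 and 16.7% for MTA1. AC005943.1 lies on the same strand as MBD3 and covers 75.3% of its span. Counts of these 4 members are uncertain, because how the counting treated strand and overlapping genes is not stated. HDAC2 shares 53.2% of its span with the antisense gene HDAC2-AS2, and MTA1 59.5% of its span with TEX22, so reads from introns there cannot be assigned with certainty either. The small genes AC025750.1, AC074375.1 and RF00017 in MTA3, SNORA37 in MBD2 and SCARNA11 in CHD4 had at most 49 counts in any library. AC005943.2, a gene of 0.148 kb on the opposite strand in MBD3, had more. Its counts in replicates 1, 2 and 3 were 274, 7 and 344 in the control and 67, 2 and 166 in the mutant. No annotated gene with at least 10 counts in total overlaps MTA2 or MBD1.

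The libraries differed widely in depth and in background. Total counts ran from 3287218 to 73331652. The share of nuclear gene counts that lies at the density of 388 olfactory receptor genes, taken here as little transcribed, was 6.60% to 7.46% in both replicate 3 libraries, 37.9% and 55.4% in replicate 1 and 81.6% to 84.4% in replicate 2. Of 11 markers of the HEK line, 9 and 10 lay above 3 times that density in control and mutant replicate 3, VIM and NEFM among them, and 3 of 11 in each replicate 2 library; PAX8 stayed below 2 times in every library. Their summed level was 251 to 478 CPM (counts scaled to a common library size with TMM factors) in the control and 212 to 404 in the mutant, and KRT18, an intermediate filament gene, was the 1 marker that passed the blocked test described below (−1.21 ± 0.29, adjusted p = 0.0219, edgeR). Of 11 markers of blood, liver, endothelium, pancreas, astrocytes and muscle, 0 to 3 per library lay above 3 times background, with a summed level of 29.03 to 140 CPM in the control and 23.3 to 127 in the mutant. Of these, DES (0.90 ± 0.54 in the blocked fit) did not pass. No marker of that list was at 0 in all libraries, and APOA1 and INS were at 0 in 1 library each. The part of these differences in the results below was not tested.

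Background set how much of each member's count carries its own RNA. In control replicate 3 the members lay between 7.20 times background, for MTA3, and 990 times, for MTA2, with a median of 108. In control replicate 1 the median was 19.7 times, and in control replicate 2 it was 2.17 times, with 6 of 10 members under 3 times background. The mutant medians were 7.19, 1.72 and 76.6 times in replicates 1, 2 and 3, and 9 of 10 members lay under 3 times in replicate 2. Replicate 2 thus gives little information on any member but RBBP4, which was at 4.46 and 4.24 times background there, and on MTA2, CHD4 and MBD3 in the control, at 6.46, 5.28 and 3.24 times. The long genes MTA3 (span 262 kb) and MBD2 (73.2 kb) were near background in replicate 1 too, with 1.34 and 1.02 times for the control library and 1.42 and 1.13 times for the mutant library.

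**Figure D1:**
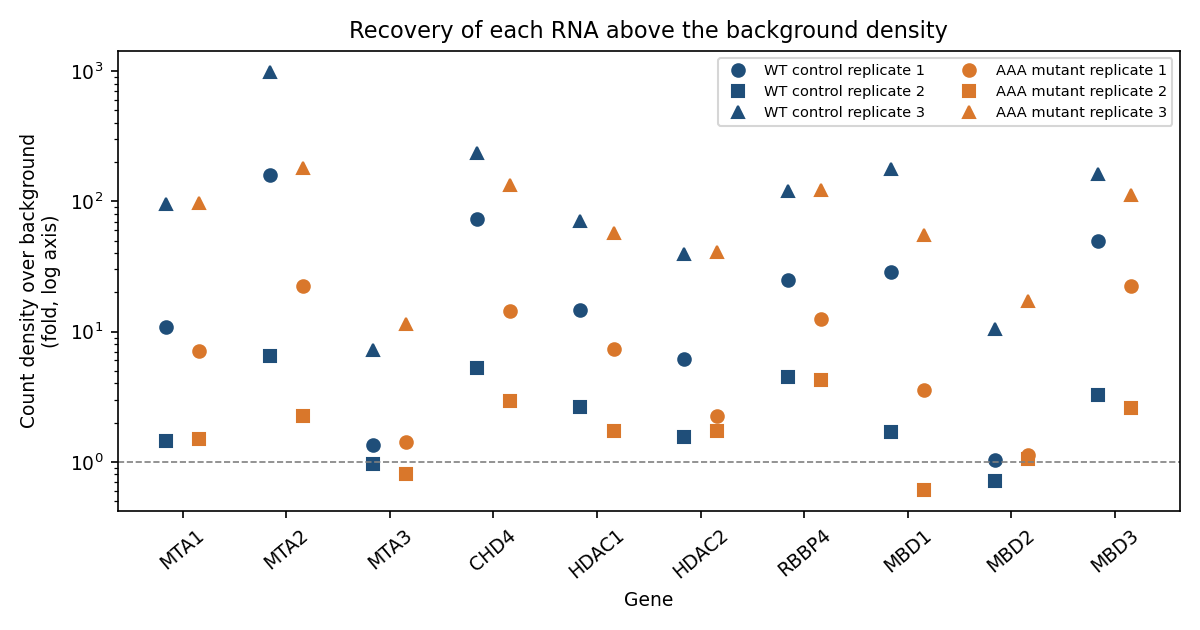
Count density over gene span relative to the olfactory receptor density (log axis) for each member in the 6 libraries; the dashed line is background, and each point is 1 library. Replicate 3 lies highest for every member, and MTA2 in control replicate 3 stands highest of all points at 990 times background.

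Levels between genes were compared as background-corrected CPM per kb of exon. In the control MTA2 came first with 60.8 ± 54.5 (SD, n = 3), followed by CHD4 (34.3 ± 25.8) and HDAC1 (25.4 ± 18.1). MTA1 (18.2 ± 19.0), MBD3 (16.1 ± 12.5), RBBP4 (15.6 ± 10.5) and MBD1 (11.6 ± 10.6) followed, and HDAC2 (5.70 ± 4.94), MTA3 (3.34 ± 4.62) and MBD2 (1.85 ± 4.17) came last. Every neighbouring pair in this order lay within the larger of its 2 SDs, so the order of neighbours is not resolved. On the same scale in the mutant, HDAC1 came first with 15.1 ± 12.6, MTA1 next with 14.7 ± 16.3, and MTA2 in place 5 with 9.39 ± 8.25, while MBD1 came last with 2.23 ± 3.06. By library, MTA2 held the first place in control replicates 1 (66.8) and 3 (112) and in no mutant library, where HDAC1 (15.4), RBBP4 (3.69) and MTA1 (32.7) led in replicates 1, 2 and 3.

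The comparison asks which RNAs came down to a different extent with the mutant. Without the pairing of libraries by replicate number, edgeR's quasi-likelihood test called 0 of 33375 genes (0%) and no member. An unadjusted p under 0.05 was reached by 25 genes. DESeq2 and limma-voom called 0 as well (70 and 2 genes at an unadjusted p under 0.05). Libraries with the same number deviated together (r = 0.41, 0.76 and 0.90 across genes for numbers 1, 2 and 3). Between different numbers r ran from −0.81 to 0.27, the highest for control 2 with mutant 1. The fit with the number as a block is therefore given for every member, with a pairing inferred from these same counts. In that fit 467 genes (1.4% of those tested) were lower and 2 (0.00599%) higher at an adjusted p under 0.05. Among the 4279 tested genes far above background, meaning more than 8 times on the log average, 8.72% were lower and 0.0467% higher. Of the 10 members, MTA2, MBD1 and CHD4 fell, none rose, and 7 did not pass; the set was built around MTA2 and MBD1, so this count carries no weight of its own.

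MTA2, the scaffold subunit, had 285, 17.8 and 475 CPM in control replicates 1, 2 and 3 and 45.0, 6.004 and 73.4 CPM in the mutant. Its raw counts were 3953, 265 and 19708 against 395, 26 and 3952. Both replicate 2 libraries were low, the ranges of the groups overlapped, and within each pair the mutant was lower. The differences in log2 CPM were −2.66, −1.56 and −2.69 in pairs 1, 2 and 3, so that in pair 3, the deepest, the mutant held 0.155 times the control level. The log2 fold change was −2.39 ± 0.34 (SE, n = 3 pairs) with the block and −2.64 ± 1.21 without it. In mutant replicate 2 the expected background amounted to 44.1% of the MTA2 count, against 15.5% in its control.

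The other MTA paralogs did not share this. MTA1, recovered at 115, 23.3 and 271 CPM in the control and 83.2, 23.3 and 230 CPM in the mutant, had pair differences of −0.47, 0.00 and −0.24. Its blocked value was −0.24 ± 0.29, and turned to 0.24 when the factors came from genes far above background. MTA3 had 73.1, 80.8 and 105 CPM against 86.6, 65.1 and 141 CPM, pair differences of 0.24, −0.31 and 0.43 and a blocked value of 0.12 ± 0.27. MTA3 counts in replicates 1 and 2 were for the most part background, with an expected share of 70.4% to 124% of the count, and its level in replicate 3 is the informative one. A test of the difference between paralogs was not made, because the pair was chosen on this contrast. The paralogs also differ in span, with 8.63 kb for MTA2, 50.9 kb for MTA1 and 262 kb for MTA3. Over the 10 members the blocked value rose with span (Spearman's rho = 0.79), as did pair 3 (0.84). Over 4279 genes far above background these values were −0.011 and 0.24. Over the 10 members the blocked value also rose with the background share of the count in control replicate 3 (rho = 0.88). The part of span or of background share in the differences between members was not tested.

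MBD1, the methyl-CpG reader, gave 89.4, 8.04 and 146 CPM in the control and 12.3, 2.77 and 38.7 CPM in the mutant, from raw counts of 1242, 120 and 6049 against 108, 12 and 2084. The groups overlapped through replicate 2, and the mutant was lower in each pair. Pair differences were −2.86, −1.52 and −1.91, and the blocked log2 fold change was −2.20 ± 0.29 (n = 3 pairs), against −2.17 ± 1.14 without the block. MBD1 in replicate 2 was close to background, at 1.69 times (control) and 0.606 times (mutant), and its pair 2 value rests on such counts. SETDB1, its methyltransferase partner, had a blocked value of −0.97 ± 0.27 that did not pass (adjusted p = 0.0619, edgeR).

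CHD4, the remodelling ATPase, had 680, 74.9 and 578 CPM in the control and 149, 40.2 and 276 CPM in the mutant. Its pair differences were −2.19, −0.90 and −1.06, largest in pair 1. The blocked value of −1.39 ± 0.37 passed the threshold by a narrow margin (adjusted p = 0.0477, edgeR). It did not pass with upper quartile factors (−1.23, adjusted p = 0.073). AC006064.6, which contains most of CHD4, had a blocked value of −1.60 ± 0.40 (adjusted p = 0.0294, edgeR), and the antisense gene AC006064.2 within CHD4 had −1.72 ± 0.28 (adjusted p = 0.000499). These 3 values are not independent, since the same reads may stand in each.

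HDAC1 and HDAC2, the deacetylases, had smaller differences. HDAC1 gave 127, 35.0 and 164 CPM in the control and 70.9, 22.2 and 111 CPM in the mutant, and its pair differences of −0.84, −0.66 and −0.56 were close to one another. HDAC2 gave 101, 38.7 and 171 CPM against 41.0, 41.1 and 149 CPM, with pair differences of −1.30, 0.09 and −0.19. The blocked values were −0.69 ± 0.27 for HDAC1 and −0.47 ± 0.29 for HDAC2, and neither passed. With factors from genes far above background that of HDAC1 was −0.21. RBBP4, the histone-binding subunit, gave 180, 49.9 and 234 CPM against 101, 45.7 and 202 CPM and −0.39 ± 0.30, a direction that turned (0.07) with factors from genes far above background. Its pair differences were −0.83, −0.12 and −0.21, so pair 1 carried most of the value.

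MBD3, the NuRD subunit, had 198, 19.8 and 173 CPM in the control and 99.9, 15.2 and 102 CPM in the mutant, and −0.73 ± 0.28 in the blocked fit (−0.24 with factors from genes far above background), which did not pass. Its paralog MBD2 had 15.6, 16.8 and 42.5 CPM against 19.1, 23.8 and 58.9 CPM and was the 1 member higher in the mutant in all 3 pairs, by 0.29, 0.50 and 0.47. The blocked value of MBD2, 0.42 ± 0.23, did not pass, and was 2.66 with background subtracted, which did not pass either. In replicates 1 and 2 the expected background was 88.8% to 139% of its count. Only the replicate 3 libraries, at 10.5 and 17.1 times background, held an MBD2 signal clear of background.

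Over the 10 members the median blocked log2 fold change was −0.58. Among all 33375 genes the median was −0.08, and among those far above background −0.52. To that group 7 of the 10 belong, while HDAC2, MTA3 and MBD2 do not. MBD3, HDAC1, HDAC2, RBBP4 and MTA1 had values within 1 SE of −0.52, while MTA2, MBD1 and CHD4 lay below it. MTA3 and MBD2 lay above it, but most of their count in replicates 1 and 2 was expected background. A total of 6 members were lower in all 3 pairs, against 18.2% of all tested genes and 39.7% of genes far above background, and 1 was higher in all 3 pairs, against 9.9% and 1.5%. No member had groups that did not overlap in CPM. Separate groups were seen for 0.446% of all tested genes with the mutant lower and 0.551% with it higher, and for 0.0467% and 0.0701% of genes far above background.

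**Figure D2:**
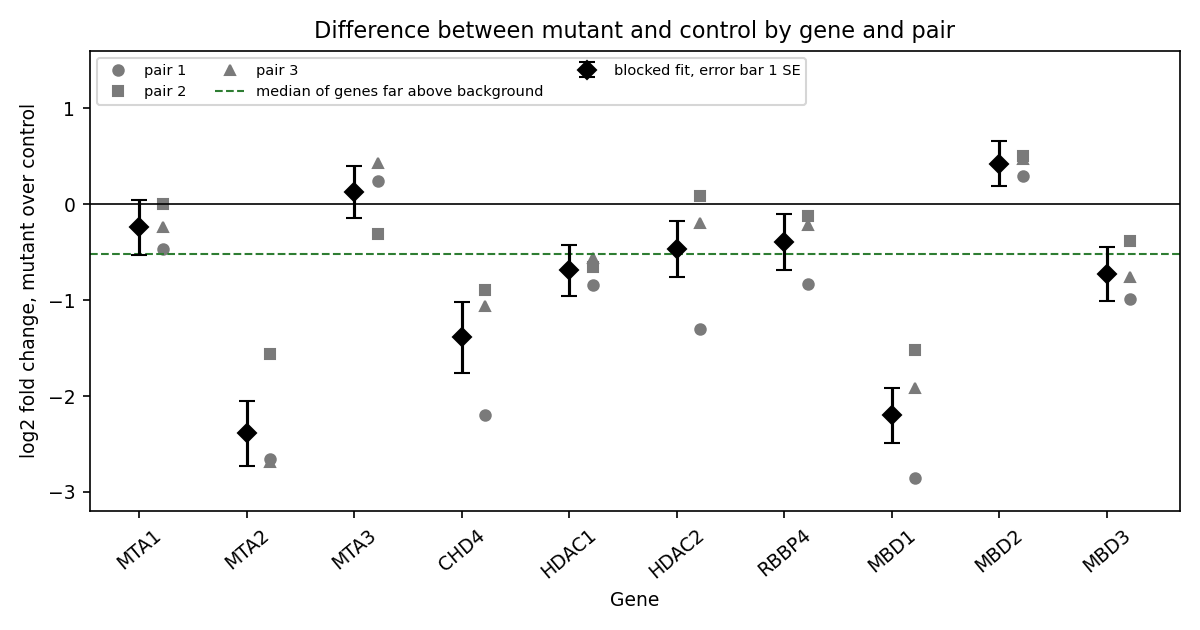
Log2 fold change of the mutant over the control for each member; diamonds with bars are the blocked fit ± 1 SE, grey symbols are the 3 pairs, and the dashed line is the median of genes far above background (−0.52). MTA2 and MBD1 lie below −2, CHD4 at −1.39, and MTA3 and MBD2 above 0.

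Both the calls and the sizes of these falls depended on the pairing, the scaling and the libraries. MTA2, MBD1 and CHD4 stayed lower in the mutant in every fit. With factors from genes far above background 4 genes were called and no member was (MTA2 −1.86, MBD1 −1.63, CHD4 −0.92), and the median of all genes moved from −0.08 to 0.39. Upper quartile factors moved it to 0.08, and there MTA2 (−2.22) and MBD1 (−2.02) still passed. With background subtracted, or without pair 3, 0 genes passed (401 and 1948 at an unadjusted p under 0.05, edgeR). The values of MTA2, MBD1 and CHD4 were then −2.37, −2.73 and −1.38 with background subtracted and −2.23, −2.41 and −1.58 without pair 3, close to or larger than in the blocked fit of all pairs.

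Ratios between members of the same library need no scaling factor, so they were set side by side. The 13 ratios were chosen after the counts had been seen and are described only. Background was not removed from these counts. In mutant replicate 2 it was expected to be 44.1% of the MTA2 count and 67.1% of the MTA1 count. Among the members there it ran from 23.6% for RBBP4 to 165% for MBD1, so ratios in replicate 2 partly carry background. The ratio of MTA2 to MTA1 counts was 2.48, 0.761 and 1.75 in control replicates 1, 2 and 3 and 0.541, 0.257 and 0.319 in the mutant. All 3 mutant libraries lay below all 3 control libraries. Of 31805 tested genes with counts in every library, 1.06% had a ratio to MTA1 with the same separation.

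The ratio of MBD1 to MBD3 counts was 0.451, 0.405 and 0.844 in the control and 0.123, 0.182 and 0.381 in the mutant, again without overlap, as for 0.248% of genes set over MBD3. CHD4 over RBBP4 went from 3.77, 1.501 and 2.47 to 1.47, 0.879 and 1.37, also without overlap, as for 0.676% of genes set over RBBP4. These 3 were the ratios of the 13 whose groups did not overlap. MTA2 over MBD1 was 3.18, 2.21 and 3.26 in the control and 3.66, 2.17 and 1.90 in the mutant, so the 2 RNAs kept a similar proportion in pairs 1 and 2 and not in pair 3. HDAC1 over HDAC2 was 1.26, 0.905 and 0.961 against 1.73, 0.539 and 0.743, with overlap, where 0.148% of genes set over HDAC2 separated with the mutant lower. RBBP4 over its paralog RBBP7 was 1.19, 2.12 and 1.24 against 1.35, 2.20 and 1.35, the smallest mean difference between groups of the 13 ratios. Over RBBP7, 0.698% of genes separated with the mutant lower.

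**Figure D3:**
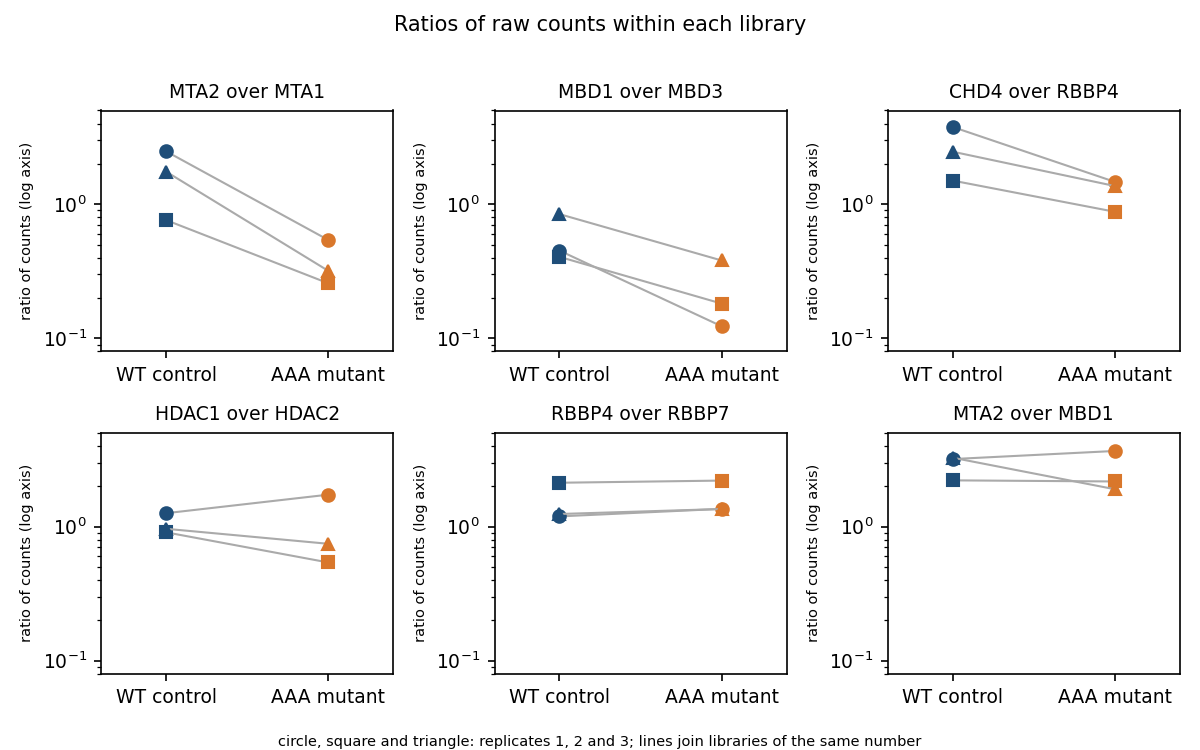
Ratio of raw counts of 2 genes within each library (log axis); circles, squares and triangles are replicates 1, 2 and 3, and lines join libraries of the same number. Background was not removed from the counts. The groups separate for MTA2 over MTA1, MBD1 over MBD3 and CHD4 over RBBP4 and overlap for the other 3.

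Across the 6 libraries most members followed one another closely in log2 CPM. Pearson's r was 0.99 for MTA2 with MBD1 and 0.98 for CHD4 with either, and HDAC1, which did not pass, had r of 0.97 with each of these 3. RBBP4 had r = 0.98 with MTA1 and with HDAC1. MTA2 and MBD2 had r = 0.27, and MTA2 and MTA3 r = 0.42. These points share the replicate structure described above, so high values are common. Of 17624 genes outside the lists, PELI3, an E3 ubiquitin ligase, TRIP10 and AIF1L had the patterns most like MTA2 (r of 0.999, 0.998 and 0.998 over 6 libraries), with blocked values of −1.29, −1.79 and −0.97. The patterns most like MBD1 were those of the antisense RNA LRP4-AS1, of the fatty acid oxidation gene CPT1B and of PITRM1-AS1 (r of 0.998 each), with blocked values of −0.89, −2.15 and −1.25.

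The other genes of these pathways were taken from 8 lists, 146 genes in all, of which 145 were tested. In the blocked edgeR fit 0 of the 145 passed in either direction, where 1.4% of all tested genes were called lower. An unadjusted p under 0.05 was reached by 25 of the 145 and by 3347 of all 33375 genes. Lower in all 3 pairs were 33 of the 145, against 18.2% of all tested genes, and higher in all 3 pairs 13, against 9.9%. The genes far above background included 33 of the 145. Without the block 0 passed as well.

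Among 21 other NuRD subunits and cofactors the median was −0.07, and the smallest p-values were those of the transcription factor SALL2 (−0.92 ± 0.26, adjusted p = 0.0677, edgeR) and of CHD3, the ATPase that replaces CHD4 in some complexes (−0.88 ± 0.30). CHD3 had pair differences of −1.62, −0.14 and −0.82, the same sign as CHD4 in each pair. The 15 tested genes among 16 listed as other methyl-CpG binding and MBD-fold proteins had a median of −0.14. SETDB1 and CXXC1 (−0.997 ± 0.32) were lowest in p. CXXC1 is a CpG-binding protein outside the MBD family that this list also holds. The pair differences of CXXC1 were −2.04, 0.61 and −0.98, so pair 2 went the other way.

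The Sin3 complex, a second HDAC1 and HDAC2 complex, had a median of −0.07 over 15 genes, with SAP18 (−0.73 ± 0.27) and BRMS1 (−0.65 ± 0.30) first. CoREST and MiDAC, further complexes built on these deacetylases, had −0.05 over 17 genes, with ZMYM3 (−1.004 ± 0.27, adjusted p = 0.0549, edgeR) and DNTTIP1 (−0.91 ± 0.27) first. Other histone deacetylases and their corepressors had −0.21 over 21 genes, led by GPS2 (−0.89 ± 0.28) and the sirtuin SIRT7 (−0.70 ± 0.25).

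Other chromatin remodelling ATPases and their partners had a median of −0.22 over 27 genes, with 22 below 0, and the BAF subunits SMARCD2 (−0.92 ± 0.26) and SMARCD1 (−0.79 ± 0.25) had the smallest p-values. Polycomb, CAF-1, HAT1 and MuvB genes, several of whose complexes contain RBBP4, had −0.11 over 18 genes, with PHF19 (−0.53 ± 0.24) and the histone chaperone ASF1B (−0.49 ± 0.24) first. Enzymes that add or remove DNA methylation had −0.14 over 11 genes, with DNMT3B (−0.48 ± 0.24) and the maintenance methyltransferase DNMT1 (−0.55 ± 0.35) first. ASF1B and DNMT3B turned to 0.021 and 0.0069 with factors from genes far above background. None of the genes named from these lists had groups that did not overlap.

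**Figure D4:**
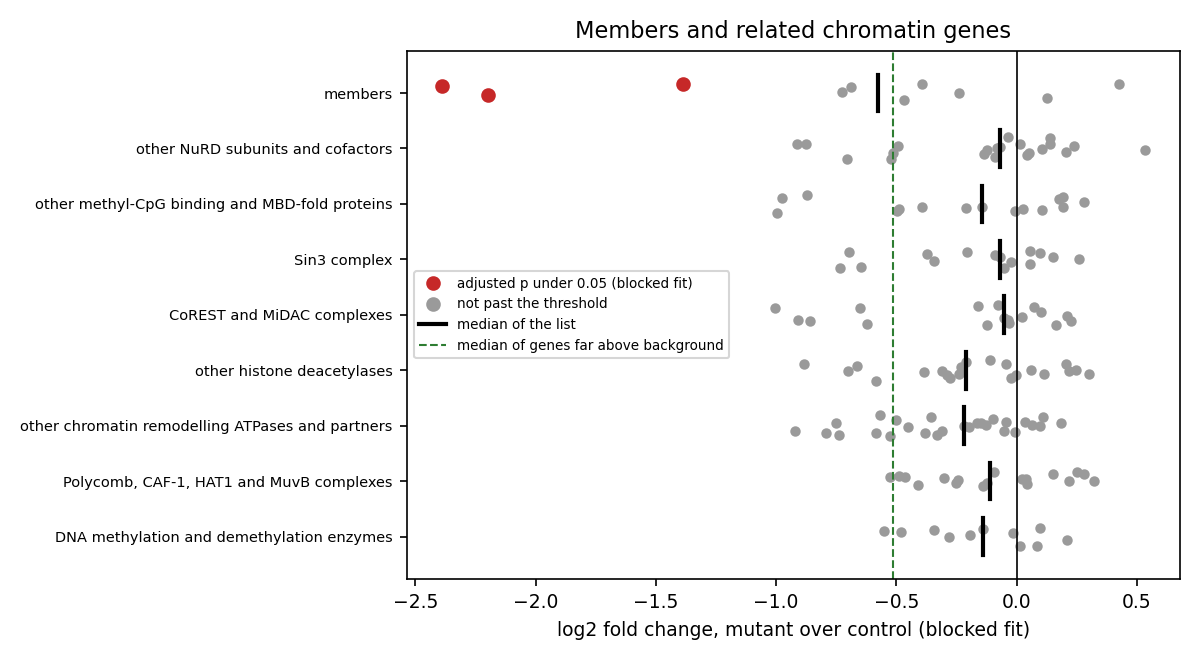
Blocked log2 fold change of each tested gene (points) of the 10 members and 8 related lists, with list medians as black bars and the median of genes far above background as a dashed line; vertical scatter is for visibility only. Red points, past an adjusted p of 0.05, are MTA2, MBD1 and CHD4, and the related lists extend from −1.004 to 0.53 with no red point.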

How the data were processed

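Raw, unnormalized counts for each gene ID in 6 columns were deposited by the authors; STAR 2.7.6a, FastQC and featureCounts were used, per the submitters' processing notes. Genome build, annotation and counting settings: not given in the sources used here. Gene symbols came from a table of gene IDs, and positions, spans and exon lengths from the GRCh38 annotation of GENCODE release 29 (58453 of 60671 IDs matched). Background is the summed count per base of gene span of 388 olfactory receptor genes, times a gene's span.

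Counts were fitted with edgeR 4.0.16 (R 4.3.3; filterByExpr, TMM factors, quasi-likelihood F test, Benjamini-Hochberg adjustment over all 33375 tested genes, threshold 0.05), without and with the replicate number as a block. The SE is the size of the fold change divided by the square root of F. CPM used TMM-scaled library sizes, and log2 CPM a prior count of 1. The edgeR fit alone was also run on simulated counts. Effects of the replicate number were built into them, so that run cannot decide whether the pairing holds in these libraries. DESeq2 1.42.0 and limma 3.58.1 were alternatives, beside other scaling factors, no filter, background subtraction and leaving out libraries or pairs. The pairing comes from the correlations of same-numbered libraries (0.41, 0.76 and 0.90), since the labels do not say what a number marks. The smallest exact permutation p for 3 against 3 libraries is 0.1, so none was used.

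Members and lists were chosen with earlier results of these data known. All members were named; each related list gave up to 3 called genes by smallest p, or 2 as values only; overlapping genes needed 10 counts in total; for MTA2 and MBD1 the 3 genes of highest Pearson r with an average log2 CPM of at least 2 were named.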

Additional observations from a re-analysis of the deposited data

How the results depend on the processing

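Without the block 0 genes passed in edgeR, and also with DESeq2 size factors, upper quartile factors, no filter, DESeq2, limma-voom or any 1 library left out. With the replicate block 469 genes passed, 312 with the block and upper quartile factors, 4 with the block and factors from genes far above background, 0 with the block and background subtracted, and 0 to 259 with the block and 1 pair left out (37 without pair 1, 259 without pair 2, 0 without pair 3). MTA2 had −2.39 with the block, −2.22 with the block and upper quartile factors and −2.51 to −2.23 without 1 pair; it passed without pair 2 and did not without pair 1 or pair 3. MBD1 had −2.20, −2.02 and −2.41 to −1.81 in the same fits and passed without pair 1 or pair 2, not without pair 3. CHD4 passed only in the fit with the block and TMM factors (−1.39), and had −1.58 to −1.06 without 1 pair.

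Directions turned for MTA1 (0.24) and RBBP4 (0.073) with the block and factors from genes far above background, as for ASF1B (0.021) and DNMT3B (0.0069; 0.27 with background subtracted). With the block and those factors HDAC1 had −0.21 and MBD3 −0.24, and with background subtracted MBD2 had 2.66 and MTA3 0.89. With 1 library or pair left out the ranges were −3.28 to −1.66 for MTA2, −3.35 to −1.21 for MBD1, −2.18 to −0.86 for CHD4, −1.17 to −0.06 for HDAC1, −1.37 to −0.19 for MBD3, −1.30 to 0.92 for MTA1, −0.15 to 0.60 for MTA3, −0.20 to 1.26 for MBD2, −1.31 to 0.35 for HDAC2, −1.03 to 0.21 for RBBP4, −1.71 to 0.81 for SAP18, −1.14 to 0.22 for ASF1B and −1.34 to 0.053 for DNMT1. MTA3 with the block also turned without pair 1 (−0.014) and without pair 3 (−0.042). The turns came without control replicate 3 (MTA1, HDAC2, RBBP4, SAP18, ASF1B), without mutant replicate 2 (MTA1, HDAC2, RBBP4, ASF1B, DNMT1) and without mutant replicate 3 (MTA3, MBD2). Leaving out 1 library breaks its pair; the cause of these turns was not tested. In replicate 2 most members lay under 3 times background. The background share was 84.4% in control replicate 2 (11067938 counts) and 55.4% in mutant replicate 1 (7347998 counts). The parts of depth and background in these results were not tested.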
